A study of Homo sapiens with 6 samples.

Results

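The inhibitor of apoptosis (IAP) proteins and their mitochondrial antagonists were followed in Capan-1 cells given p16, as 7 genes fixed by name: BIRC6, BIRC2, BIRC3, XIAP and NAIP for the inhibitors, and DIABLO and HTRA2 for the antagonists. Every probe set that the array annotation ties to exactly 1 of these genes was taken, which gave 16 of the 54613 probe sets on the array for 6 of the 19775 genes named that way. BIRC3 has no probe set in the annotation used and was not analysed here. Capan-1 is an established human pancreatic carcinoma cell line. The study has 3 samples of cells transfected with a human p16 cDNA, driven by the cytomegalovirus promoter in a vector with neomycin resistance, and 3 mock-transfected samples. Growth in RPMI with 15% serum was common to both, and transfected cells had been selected with 1 mg/ml G418 together with 0.1 mg/ml hygromycin. The labels number the samples V1 to V3 in each group, give no meaning for a number, and do not tell whether samples came from separate clones or cultures. The p-values therefore measure only how these samples varied, and that variation may be technical. Each sample has 1 array of 6 in all, which limits the precision, and the values are log2 expression levels made by the authors with GCRMA.

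IAP proteins carry BIR domains, zinc-binding folds that dock onto caspases or onto signalling adaptors. XIAP blocks caspases directly, whereas the cellular IAPs act mostly as ubiquitin ligases on TNF receptor complexes and so steer NF-kappaB signalling and cell death. When mitochondria release DIABLO (also called SMAC) and HTRA2 (also called OMI), the exposed N-terminus of each binds BIR domains and displaces their partners. Pancreatic carcinoma cells are known for their resistance to apoptosis, and IAP proteins are among the factors studied for it.

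The groups differed well beyond the transfected gene. CDKN2A, which encodes p16, read 12.12, 13.01 and 12.67 in the p16 samples V1, V2 and V3, against 5.61, 6.43 and 6.01 in the mock samples. MTAP, the neighbour of CDKN2A that the cDNA does not carry, averaged 11.05 ± 0.29 in p16 and 2.07 ± 0.01 in mock cells (SD, n = 3 each), at least 133-fold higher in p16 cells. Of 8 duct and epithelial markers, 6 fell, against 22.5% of all genes tested. KRT7 (change -0.10, limma adjusted p = 0.73) and EPCAM (-1.02, adjusted p = 0.072) were not called. The summed log2 level of all 8 was 86.6 to 90.3 in p16 and 109 to 112 in mock samples. The 4 leukocyte, 4 endothelial and 2 acinar markers measured stayed below log2 4 throughout. Of 5 fibroblast markers, 2 stayed below 4 in every sample and LUM rose at least 30.4-fold. COL1A1 changed by -0.13 on its brightest probe set (limma adjusted p = 0.75), though 2 of its 3 tested probe sets rose. PDGFRB averaged 4.56 in p16 and 2.48 in mock cells and was not tested. The summed level of the 5 was 25.5 to 27.6 in p16 and 18.0 to 18.4 in mock samples. These differences moved with every result below, and their part in those results was not tested. What the transfection changed and what else separates these cultures cannot be told apart.

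Probe sets were tested if 3 or more of the 6 samples, from either group, reached a log2 level of 4. That left 13 of the 16 probe sets and 5 genes, and 3 of the 13 were called at an adjusted p under 0.05 (limma, two-sided, Benjamini-Hochberg over all 24406 probe sets tested), against 37.2% of all probe sets tested (17.5% higher and 19.7% lower in p16 cells). BIRC6 fell on both of its probe sets and DIABLO rose on its only one. HTRA2, BIRC2 and XIAP were not called, and NAIP lay under 4 throughout. The median log2 change of the 13 probe sets was 0.22, against -0.0011 over all probe sets tested, and the changes ran from -2.01 to 0.86. XIAP holds 7 of the 13, and this median is the change of its probe set 235222_x_at. Over the brightest probe set of each of the 5 genes the median was 0.56, against -0.03 over all genes tested. That is the change of BIRC2, which was not called.

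**Figure D1:**
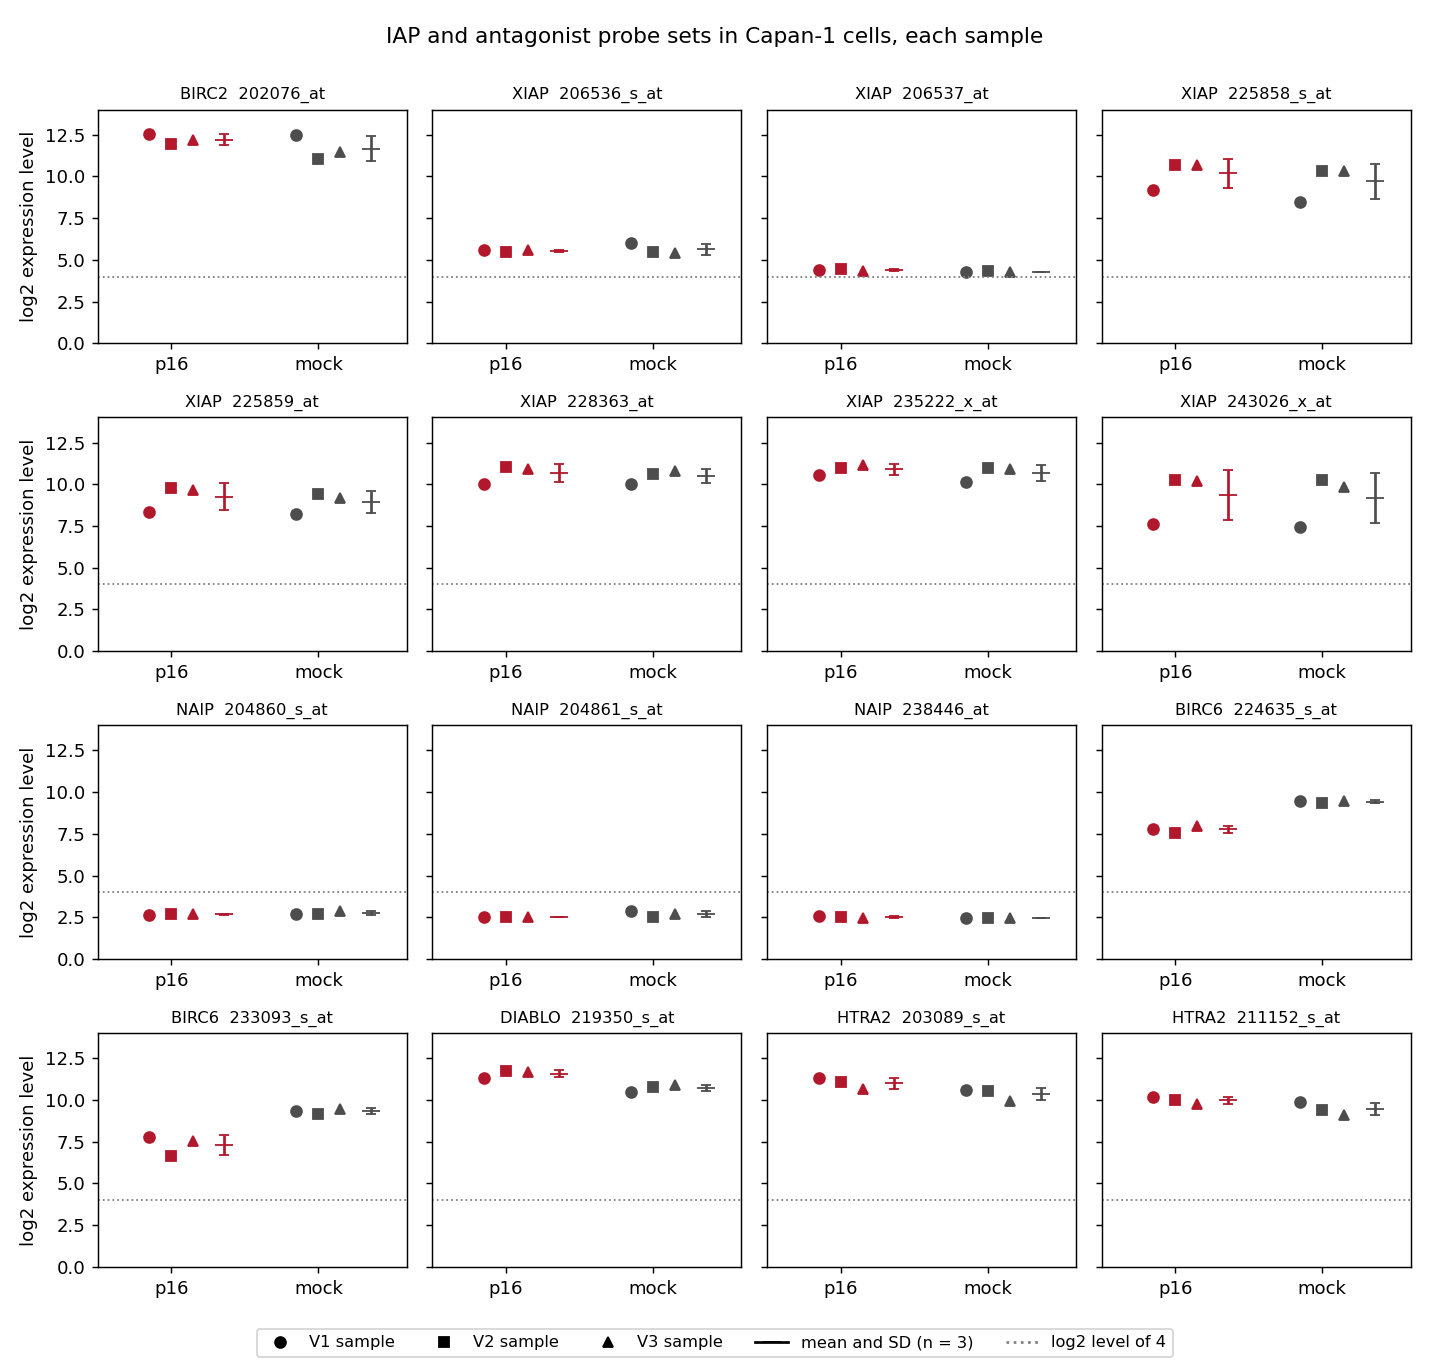
Log2 expression level (vertical axes) of the 16 probe sets in each sample, p16 left and mock right, with circles, squares and triangles for V1, V2 and V3, the mean with its SD (n = 3) beside them and a dotted line at a log2 level of 4. Both BIRC6 panels show every p16 sample under every mock sample, the DIABLO panel shows the opposite, and in 5 XIAP panels the V1 sample of each group lies under V2 and V3.

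BIRC6, an exceptionally large IAP that joins a BIR domain to a ubiquitin-conjugating domain and marks caspases, DIABLO and HTRA2 for degradation, was the only inhibitor called. Probe set 224635_s_at read 7.81, 7.56 and 7.98 in the p16 samples V1, V2 and V3, against 9.48, 9.34 and 9.46 in the mock samples. The other probe set, 233093_s_at, read 7.77, 6.65 and 7.53 in p16 samples, against 9.35, 9.14 and 9.48 in mock samples. All p16 samples lay under all mock samples on both probe sets, and the V2 sample was the lowest of the p16 group each time. On 224635_s_at the change was -1.64 (SE 0.18, limma adjusted p = 0.0011), a level 3.13-fold lower in p16 cells. On 233093_s_at it was -2.01 (SE 0.33, limma adjusted p = 0.0054), 4.02-fold lower. Within each V number the difference between p16 and mock ran from -1.78 to -1.48 on the first and from -2.49 to -1.58 on the second probe set. In bulk RNA such as this, fewer cells with the transcript and less transcript per cell cannot be told apart.

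DIABLO, the SMAC protein that leaves mitochondria and binds BIR domains, was higher in p16 cells. Its probe set 219350_s_at read 11.33, 11.74 and 11.68 in the p16 samples V1, V2 and V3, against 10.51, 10.78 and 10.88 in the mock samples. The lowest p16 sample lay above the highest mock sample, and V1 was the lowest of its group in both. The change was 0.86 (SE 0.20, limma adjusted p = 0.019), or 1.81-fold higher. Differences within V1, V2 and V3 were close to each other, at 0.82, 0.96 and 0.80. The call was lost without the mock V2 sample (adjusted p = 0.054), the p16 V2 sample (0.071) or the p16 V3 sample (0.075).

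HTRA2, a mitochondrial serine protease whose released form binds and can cleave IAP proteins, was not called on either probe set. Probe set 203089_s_at read 11.29, 11.05 and 10.65 in the p16 samples V1, V2 and V3, against 10.57, 10.51 and 9.92 in the mock samples. Here the groups did not overlap, as in 51.8% of all probe sets tested, though the lowest p16 value and the highest mock value were only a little apart. The change was 0.66 (95% interval -0.01 to 1.33, limma adjusted p = 0.11). On 211152_s_at the levels were 10.18, 9.98 and 9.75 in p16 samples, against 9.85, 9.39 and 9.12 in mock samples, which overlap. That change was 0.52 (95% interval -0.09 to 1.13, limma adjusted p = 0.16). In both groups and on both probe sets V1 was highest and V3 lowest. When the V number was fitted as a replicate block, a fit that called 63.5% of all probe sets tested, both HTRA2 probe sets were called (adjusted p = 0.0074 and 0.021).

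**Figure D2:**
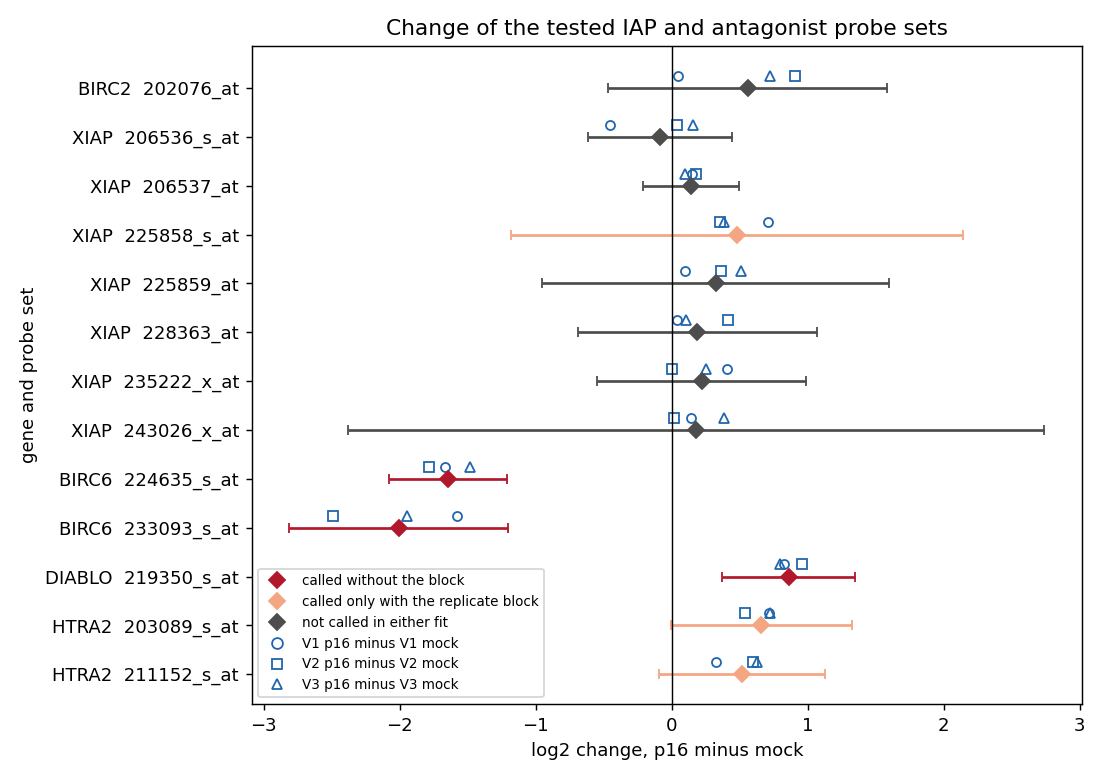
Log2 change of the 13 tested probe sets, p16 minus mock (horizontal axis), with diamonds for the limma estimate, bars for its 95% interval and open blue symbols for the difference within each V number. Both BIRC6 intervals lie below 0, the DIABLO interval lies above it, and the widest interval, -2.38 to 2.74, is that of XIAP probe set 243026_x_at.

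The mitochondrial antagonist that rose and the inhibitor that fell are shown by the sequence around their starts, since both genes were called and in opposite directions. RefSeq windows of 300 bases (250 before a start and 50 after it, build GRCh38.p14) were present for 6 of the 7 genes, 14 windows in all, and NAIP had no match there. Each was searched on both strands for E2F motifs (TTTCCCGC, TTTGGCGC, TTTCGCGC or TTTGCCGC), since p16 acts on E2F factors through RB proteins, and for an E-box (CACGTG), a cyclic AMP response element (TGACGTCA) and an ETS motif (CCGGAAGT). Capitals mark the ETS match, which reads on the opposite strand in both windows below.
BIRC6, the second window, chr2:32356966-32357265, plus strand: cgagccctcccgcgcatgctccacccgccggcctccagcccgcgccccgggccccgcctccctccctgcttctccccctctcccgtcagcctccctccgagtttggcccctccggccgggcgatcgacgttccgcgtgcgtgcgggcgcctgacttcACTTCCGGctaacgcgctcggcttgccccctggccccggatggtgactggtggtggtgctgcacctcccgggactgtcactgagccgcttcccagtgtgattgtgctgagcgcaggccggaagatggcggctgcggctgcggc
DIABLO, the third window, chr12:122226003-122226302, minus strand: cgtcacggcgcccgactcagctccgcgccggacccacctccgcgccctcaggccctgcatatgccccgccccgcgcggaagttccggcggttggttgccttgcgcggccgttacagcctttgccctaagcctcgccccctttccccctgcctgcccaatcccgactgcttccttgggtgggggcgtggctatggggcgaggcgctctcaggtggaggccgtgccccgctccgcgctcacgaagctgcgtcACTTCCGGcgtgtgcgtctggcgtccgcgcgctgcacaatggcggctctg
The same ETS letters thus occurred in 1 of 2 BIRC6 windows and in 1 of 4 DIABLO windows, against 4.14% of all windows of that length. The BIRC6 and DIABLO windows printed hold 73.0% and 71.7% G or C, against a median of 58.7% over all windows. The shares were not adjusted for that. Another DIABLO window held the E-box, found in 7.26% of all windows, and both BIRC2 windows, which overlap, held 1 shared cyclic AMP response element, found in 1.85%. No window of these genes held an E2F match as spelled here, against 3.31% of all windows. No matches of different motifs overlapped. A match is a run of letters and says nothing on binding in these cells.

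BIRC2, or cIAP1, the ubiquitin ligase that tags RIPK1 and keeps the kinase MAP3K14 low, was not called. Its probe set 202076_at read 12.53, 11.92 and 12.17 in the p16 samples V1, V2 and V3, against 12.48, 11.01 and 11.45 in the mock samples. The groups overlapped through the mock V1 sample, which lay above the p16 V2 and V3 samples. The change was 0.56 (95% interval -0.47 to 1.58, limma adjusted p = 0.35), with differences of 0.05, 0.90 and 0.72 within V1, V2 and V3. Without the mock V1 sample the change was 0.97 and was called (adjusted p = 0.045), as it was without the V1 sample of both groups (0.81, adjusted p = 0.038). With the replicate block it was not (adjusted p = 0.071).

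XIAP, the most potent direct caspase inhibitor of the family, had 7 probe sets and limma called none, with a smallest unadjusted p of 0.36 in the limma fit across all probe sets. The brightest, 235222_x_at, read 10.52, 10.99 and 11.16 in the p16 samples V1, V2 and V3, against 10.12, 10.98 and 10.91 in the mock samples, a change of 0.22 (95% interval -0.55 to 0.99, limma adjusted p = 0.63). Probe set 225858_s_at read 9.19, 10.68 and 10.70 in p16 samples, against 8.48, 10.32 and 10.32 in mock samples, where V2 and V3 hold an identical value. Probe set 243026_x_at read 7.59, 10.25 and 10.20 in p16 samples, against 7.46, 10.24 and 9.82 in mock samples. The spread within a group on these probe sets was thus set by the V1 samples. On 243026_x_at they differed from the mean of V2 and V3 by -2.64 in p16 cells and by -2.57 in mock cells. This did not hold on 206537_at (-0.003 and -0.018), nor on 206536_s_at, where V1 differed by 0.03 in p16 and by 0.58 in mock cells. Across the 7 probe sets the change ran from -0.08 to 0.48. Within the V numbers, the median difference over the 7 was 0.14, 0.18 and 0.25 for V1, V2 and V3, and 206536_s_at in V1 was the only probe set and number with a p16 level under its mock level (-0.45). With the replicate block 1 of the 7, 225858_s_at, was called (change 0.48, adjusted p = 0.029), against 63.5% of all probe sets tested. The probe sets whose names end in x_at can bind related transcripts, and the genome holds close copies of parts of XIAP, so their values are uncertain.

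The dimmest XIAP probe set, 206537_at, kept the groups apart, with 4.41, 4.48 and 4.35 in the p16 samples V1, V2 and V3, against 4.26, 4.30 and 4.25 in the mock samples. That change was 0.14 (95% interval -0.21 to 0.49, limma adjusted p = 0.49) in values close to the log2 level of 4 used as the floor. Together with both BIRC6 probe sets, DIABLO and 1 HTRA2 probe set, it was among 5 of 13 whose groups did not overlap, against 51.8% of all probe sets tested.

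NAIP, which senses bacterial proteins for the NLRC4 inflammasome, lay under log2 4 in all 6 samples on all 3 of its probe sets. Probe set 204860_s_at averaged 2.68 ± 0.02 in p16 and 2.76 ± 0.12 in mock cells (SD, n = 3 each). Probe set 204861_s_at averaged 2.54 ± 0.01 in p16 and 2.69 ± 0.17 in mock cells, and 238446_at averaged 2.51 ± 0.04 in p16 and 2.47 ± 0.01 in mock cells. No fold is given at that level. The gene lies in a duplicated stretch of chromosome 5 with partial copies, so its probe sets may not separate it from them.

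Genes that work with the IAP proteins were read from 6 lists, 59 genes of which 54 were on the array and 48 were tested. Each gene takes its brightest tested probe set. In all, 11 rose, 4 fell and 33 were not called, 15 of 48, against 42.0% of all genes tested (19.5% higher and 22.5% lower in p16 cells). Some of the 33 were called on other probe sets. CFLAR was lower on 3 of 12 tested and IKBKB on 1 of 3, while TAB3 was higher on 2 of 3 and GSPT1 on 1 of 6. The median log2 change of the 48 was 0.11, against -0.03 over all 11658 genes tested. The count fell to 8 without the mock V2 sample (4 higher, 4 lower), 9 without the p16 V2 sample (5 and 4) and 8 without the p16 V3 sample (4 and 4), and was 28 without both V1 samples (16 and 12). The replicate block called 16 higher and 13 lower, 29 of 48, against 67.9% of all genes tested (32.4% higher and 35.5% lower). The split of 11 to 4 was thus more even in those fits. For the fits with samples left out the share of all genes called was not recorded, so their counts are not a result about these genes.

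**Figure D3:**
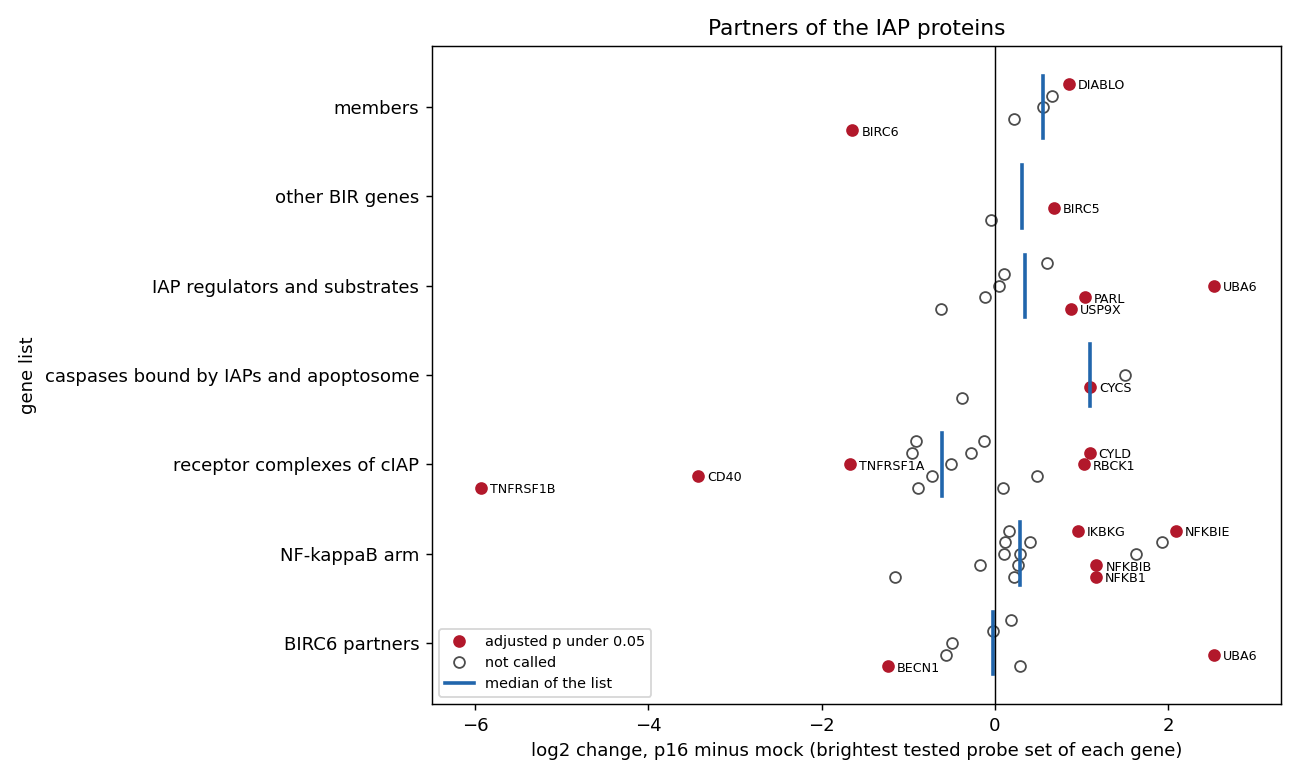
Log2 change, p16 minus mock (horizontal axis), of each tested gene of the 7 IAP and antagonist genes and of 6 partner lists, filled where the adjusted p was under 0.05, with a blue line at each list's median. TNFRSF1B and CD40 lie farthest below 0 and UBA6 and NFKBIE farthest above it.

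Receptor complexes in which the cellular IAPs act had 3 of 14 tested genes lower and 2 higher, with a median change of -0.61. Over all genes tested 22.5% were lower and 19.5% higher in that fit. TNFRSF1B, the TNF receptor that recruits cIAP proteins through TRAF adaptors, read 2.77, 3.61 and 2.72 in the p16 samples V1, V2 and V3, against 9.85, 8.70 and 8.33 in the mock samples, at least 31.1-fold lower (limma adjusted p = 0.0004). CD40, another receptor of that family, averaged 5.81 ± 0.34 in p16 and 9.24 ± 0.16 in mock cells (SD, n = 3 each), a change of -3.43 (adjusted p = 0.0002). Both were lower in every p16 sample by far more than the replicate spread. TNFRSF1A, the death-domain TNF receptor, averaged 8.77 ± 0.54 in p16 and 10.44 ± 0.04 in mock cells (change -1.67, adjusted p = 0.0072). CYLD, which removes ubiquitin chains from these complexes, rose by 1.09 (adjusted p = 0.046), and RBCK1, a subunit of the linear ubiquitin ligase, by 1.03 (adjusted p = 0.028), though 1 probe set of 3 was called. With the replicate block 3 rose and 8 fell, against 32.4% higher and 35.5% lower over all genes tested. The list had 3 genes called without the mock V2, p16 V2 or p16 V3 sample and 10 without both V1 samples. The share of all genes called with samples left out was not recorded.

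In the NF-kappaB arm 4 of 15 tested genes rose, none fell and the median change was 0.29. The share called was 26.7%, against 42.0% of all genes tested (19.5% higher and 22.5% lower). The 4 calls became 2 without the filter on low values and 8 without both V1 samples (7 higher, 1 lower). Under the block 6 rose and 1 fell, against 32.4% higher and 35.5% lower over all genes tested. The lower gene was the kinase subunit IKBKB (change -1.15, adjusted p = 0.0014, and 0.12 without the block). Without the block IKBKB was called lower on 1 of its 3 probe sets, and TAB3 higher on 2 of its 3 tested, in each case not on the brightest. Without the p16 V1 sample 5 rose and 1 fell. The 4 calls became 1 without the mock V2 or the p16 V3 sample and 2 without the mock V3 or the p16 V2 sample. For fits without the filter or with samples left out, the share of all genes called was not recorded. NFKBIE, an inhibitor that holds NF-kappaB dimers in the cytoplasm, averaged 9.25 ± 0.32 in p16 and 7.15 ± 0.26 in mock cells (SD, n = 3 each; change 2.09, limma adjusted p = 0.0015). NFKBIB, an inhibitor of the same family, rose by 1.17 (adjusted p = 0.042), NFKB1, the precursor of the p50 subunit, by 1.17 (adjusted p = 0.021) and IKBKG, the regulatory subunit of the IKK complex, by 0.96 (adjusted p = 0.020). The kinase MAP3K14, whose protein BIRC2 controls, read 7.89, 8.64 and 8.53 in p16 samples, against 7.82, 8.46 and 8.48 in mock samples, and was not called (adjusted p = 0.83). The overlapping MAP3K14 values differ by less between groups than between V1 and the other numbers.

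Of 8 tested regulators and substrates of IAP proteins, 3 rose and none fell, with a median change of 0.35. The share called was 37.5%, against 42.0% of all genes tested (19.5% higher and 22.5% lower). With the replicate block 4 rose and 1 fell, against 32.4% higher and 35.5% lower over all genes tested. UBA6, the ubiquitin-activating enzyme that supplies BIRC6, read 10.68, 11.31 and 11.48 in the p16 samples V1, V2 and V3, against 7.91, 8.74 and 9.22 in the mock samples. All 4 of its tested probe sets rose, and the brightest changed by 2.54 (SE 0.40, limma adjusted p = 0.0049), opposite in direction to BIRC6. PARL, the mitochondrial protease that trims DIABLO, rose by 1.04 (adjusted p = 0.0084), and USP9X, a deubiquitinase of XIAP, by 0.88 (adjusted p = 0.018), with 3 probe sets of 4 called. XAF1, an antagonist of XIAP, and SEPTIN4, whose isoform ARTS binds XIAP, lay under 4 in every sample on the probe sets with the highest mean.

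Among the caspase and apoptosome genes 3 of 5 were on the array. CYCS, cytochrome c, which leaves mitochondria along with DIABLO, averaged 15.07 ± 0.07 in p16 and 13.97 ± 0.04 in mock cells (SD, n = 3 each; change 1.10, limma adjusted p = 0.0023) on 1 of its 3 probe sets. APAF1, the apoptosome scaffold, changed by 1.51 without a call (adjusted p = 0.057; with the replicate block 0.0009), and CASP9, the caspase that XIAP binds on it, by -0.38 (adjusted p = 0.39). Of the remaining BIR genes BIRC5, the mitotic protein survivin, rose by 0.68 (adjusted p = 0.045), with 1 probe set of 4 called. That call was lost without the filter, with the filter at 6, after quantile normalization, with the median of probe sets, and when any 1 sample other than mock V1 was left out. BIRC7 averaged 6.46 ± 0.01 in p16 and 6.51 ± 0.21 in mock cells (adjusted p = 0.86). Of 7 ubiquitin and autophagy partners of BIRC6, UBA6 rose and BECN1, which starts autophagosome formation, fell by 1.24 (adjusted p = 0.013; 1 probe set of 3), and 5 were not called, the LC3 gene MAP1LC3B among them (-0.50, adjusted p = 0.12). Under the block 1 of the 7 rose and 3 fell, MAP1LC3B among them (adjusted p = 0.023). Over all genes tested the block called 32.4% higher and 35.5% lower, and the fit without it 19.5% higher and 22.5% lower.

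Neighbours on the chromosome did not all move with the IAP genes. For each gene the 5 nearest genes on each side with a probe set were taken, in RefSeq order, and their counts stand beside 19.5% higher and 22.5% lower over all genes tested. Around BIRC6 on chromosome 2, 6 of 10 passed the filter, of which 3 rose and 1 fell. TTC27, the next gene on one side, rose by 3.03 (limma adjusted p = 0.0007), and YIPF4, the next one on the other, fell by 0.78 (adjusted p = 0.022). SPAST, which encodes the microtubule-severing protein spastin, rose by 0.92, and LTBP1, which binds latent TGF-beta, rose 9.84-fold. XIAP, on chromosome X, was not called and lay among 5 genes that rose out of 6 tested. These were CUL4B (1.56), MCTS1 (1.69), C1GALT1C1 (2.28), STAG2 (0.97) and TENM1, which rose at least 7.39-fold. Around BIRC2 on chromosome 11, 5 were tested: YAP1 rose by 1.14 (adjusted p = 0.034) while CFAP300 and MMP7 fell, at least 20.7-fold and at least 6.97-fold. Around NAIP on chromosome 5, 7 were tested: MAP1B, a microtubule-associated protein gene, rose at least 116-fold and MARVELD2, a tight-junction gene, fell by 1.35.

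Around DIABLO on chromosome 12, 1 of 6 tested neighbours was higher, BCL7A (1.42). Under the block 3 were, as VPS33A (0.67, adjusted p = 0.011) and ZCCHC8 (1.14, adjusted p = 0.0015) passed too. Over all genes tested the block called 32.4% higher and 35.5% lower, beside which its counts of neighbours stand. Around HTRA2 on chromosome 2, 2 of 7 were lower, LBX2-AS1 (-2.48) and DOK1 (-1.62). There the replicate block called 3 more, all higher: HK2 (2.22, adjusted p = 0.0021), SEMA4F (1.17, adjusted p = 0.0027) and PCGF1 (0.39, adjusted p = 0.030). Without the block these 3 had adjusted p-values of 0.070, 0.10 and 0.28. The block also brought the lower calls to 3 around BIRC2, with CEP126, and to 3 around NAIP, with GUSBP14 and MCCC2, and left the counts around BIRC6 and XIAP as they were. BIRC3 was left out of the order as a gene without a probe set.

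**Figure D4:**
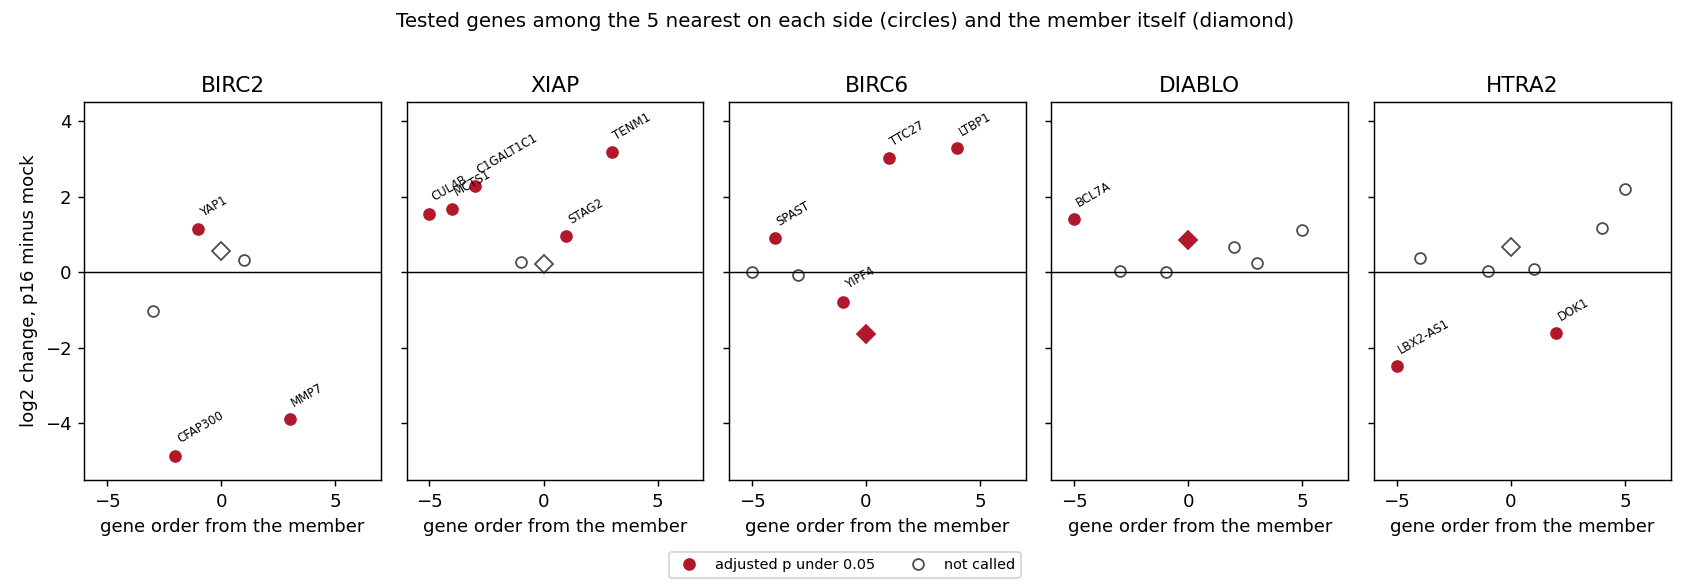
Log2 change, p16 minus mock (vertical axis), of the tested genes among the 5 nearest on each side, by their order from BIRC2, XIAP, BIRC6, DIABLO and HTRA2 (horizontal axis), with a diamond for the central gene and filled symbols for an adjusted p under 0.05. The BIRC6 diamond at -1.64 lies below all its tested neighbours, and the XIAP diamond at 0.22 lies below 5 neighbours that rose.

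The genes most like each member were found as those with the smallest Euclidean distance between log2 profiles over the 6 samples, each centred on its own mean, among 11653 genes. BIRC6 lay nearest to GLIDR (distance 0.14), DNTTIP1 (0.14) and NFAT5 (0.19), which changed by -1.70, -1.65 and -1.78. DIABLO lay nearest to HPRT1, the purine salvage enzyme (distance 0.04), then TMEM41A (0.13) and CCT5, a chaperonin subunit (0.15), with changes of 0.85, 0.86 and 0.84. BIRC2 lay nearest to ATF3, a stress-induced transcription factor (distance 0.10), which likewise was not called (change 0.56, limma adjusted p = 0.34), then to LYPD6 (0.21) and AZIN1 (0.22). XIAP lay nearest to EMD (distance 0.12), DCTN2 (0.17) and RPS21 (0.18), and HTRA2 to SLC39A13 (0.19), LDB1 (0.20) and SLC27A5 (0.21), none of which was called. With 6 samples and many genes such distances describe these arrays only. The distance includes the difference between p16 and mock samples, so a near gene has a similar change by construction.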

How the data were processed

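Gene expression was measured on Affymetrix arrays from 300 ng of RNA per sample. The deposited values are log2 levels that the authors computed by GCRMA (named without a version in the submitters' processing notes). This method removes a background predicted from each probe's sequence. Levels below 4 were read as background here, so folds against such levels are bounds. Whether every level above 4 reflects expression was not tested. Of 54675 rows, 62 control probe sets were left out. The platform annotation gave 1 gene for 41091 probe sets, several for 1801 (used for no gene) and none for 11721, unnamed here. Of the probe sets with 1 gene, 54 had a gene identifier that was not in the RefSeq table (assembly GRCh38.p14). Column medians were 3.11 to 3.19.

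The p16 and mock groups were compared with limma 3.58.1 (lmFit and eBayes, R 4.3.3) over 24406 probe sets of at least 4 in at least 3 samples, with Benjamini-Hochberg adjustment and a threshold of 0.05. A floor value was raised to 4 for "at least" folds. The test was tested on simulated data with known changes. The main comparison of p16 with mock did not pair the samples. Samples sharing a V number departed from their group means in the same direction (correlations 0.81, 0.75 and 0.67, all over 0.1). V1 lying apart would also give this. Correlations were also positive for p16 V2 with mock V3 (0.42) and p16 V3 with mock V2 (0.51). Those of V1 with another number were negative (-0.74 to -0.62). Pairing by V number was used only in an alternative fit. The fit with that number as a replicate block, other filters, normalizations, variance models and probe set rules, and each sample left out were alternatives. The members, lists and tests were chosen with earlier results of these data known. The rule for named genes takes all members, every called gene of the lists, called neighbours, the 3 genes nearest in profile, and CDKN2A, MTAP, GAPDH and ACTB. Named after their values were seen were KRT7, EPCAM, LUM, COL1A1, PDGFRB, MAP3K14, APAF1, CASP9, MAP1LC3B, BIRC7, XAF1, SEPTIN4, IKBKB, TAB3, CFLAR, GSPT1 and the neighbours called only with the block. Tables and figures used Python 3.11.15, pandas 2.3.3 and matplotlib 3.10.9.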

Additional observations from a re-analysis of the deposited data

How the results depend on the processing

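BIRC6 stayed lower and called in all 14 alternatives, with changes of -1.83 to -1.53. DIABLO stayed higher, at 0.75 to 0.99, and was called in all but the 3 fits without the mock V2, p16 V2 or p16 V3 sample. The replicate block called 6 member probe sets and 29 partner genes, against 3 and 15 without it. Over all tested it called 63.5% of probe sets and 67.9% of genes, against 37.2% and 42.0%. The HTRA2 change of 0.66 passed, and the block changed no other call among the brightest member probe sets. With samples left out, including both V1 samples (an alternative chosen after seeing the data), 2 to 5 member probe sets, 1 to 3 member genes and 8 to 28 partner genes were called. The shares of all probe sets and genes called with samples left out were not recorded, so these counts are not a result about these genes. The BIRC2 change ran from 0.24 to 0.97 in these fits, that of HTRA2 from 0.45 to 0.83 and that of XIAP on its brightest probe set, 235222_x_at, from -0.056 to 0.40. XIAP probe sets that changed sign in such fits were 206536_s_at (-0.19 to 0.11), 225858_s_at (-0.13 to 0.98), 225859_at (-0.035 to 0.80), 228363_at (-0.048 to 0.50) and 243026_x_at (-0.68 to 1.06). Quantile normalization turned 206536_s_at to 0.18, and gave a median change over all probe sets of 0.094, against -0.0011. The cause of these changes was not tested. GAPDH (adjusted p = 0.61) and ACTB (adjusted p = 0.48) were not called in the fit without a block. Levels under 4, all of NAIP among them, lie too near the background for a comparison.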
